A study of Mus musculus with 12 samples.

Results

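The EGF receptor ligands and ErbB receptors of mouse skin were examined as a family of 10 named genes. These were the ligands Areg, Ereg, Hbegf, Tgfa, Btc and Epgn, the receptors Egfr, Erbb2 and Erbb3, and the Lrig family gene Lrig3. They were found by gene symbol in a filtered table of RNA-seq counts, and 10 of the 10 were present among the 14533 genes listed. The table came from a study of what Pparg, a fatty acid-activated nuclear receptor, does in the epidermis of untreated mice. The 12 libraries were 6 from WT mice and 6 from Pparg-/-epi mice, 1 mouse each.

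All 12 mice were on the C57BL/6 strain and carried floxed Pparg on both alleles (Pparg flox/flox). WT siblings lacked the Cre transgene (Cre-/-), whereas Pparg-/-epi mice carried it on 1 allele (Cre+/-) under the Cytokeratin14 promoter. This promoter is active in basal keratinocytes, so deletion was aimed at those cells and their descendants, including the hair follicle and the sebaceous gland. Where it took place was not measured in these libraries. The mice were 8 to 13 weeks old in both groups, with 3 females and 3 males among the WT and 4 females and 2 males among the Pparg-/-epi. Non-lesional back skin was frozen and its epidermis scraped off down to the superficial vessels, so each library held epidermis and some superficial dermis. Totals ran from 10120840 to 18851255 counts per library, with group means of 14438658 in WT and 14374024 in Pparg-/-epi mice (p = 0.965 in a two-sided exact permutation test). Levels are given as CPM, a gene's counts scaled to a common library size and corrected for library composition, and 1 count was worth 0.0520 to 0.107 CPM.

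EGF family ligands are made as membrane-anchored precursors that metalloproteinases cut loose. The freed ligand binds Egfr or another ErbB receptor, the receptors pair (Erbb2, which binds no ligand of its own, is the preferred partner), and RAS, RAF, MEK and ERK carry the signal to the nucleus. In skin the pathway drives keratinocyte growth and migration, wound closure and the hair cycle. Lrig1, a relative of Lrig3, restrains the pathway at the receptor.

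Of the 10 genes, Hbegf and Epgn were higher in Pparg-/-epi epidermis, Btc was lower, and the remaining 7 were not altered. A gene was called altered when its log2 fold change was at least 0.6 in size and its adjusted p was under 0.05 (edgeR quasi-likelihood test, Benjamini-Hochberg over all 14533 genes). By this rule 10.3% of all genes were altered, 5.19% higher and 5.08% lower. The median log2 fold change was 0.32 over the 10 genes (0.21 without Pparg-/-epi mouse 12) and -0.01 over all genes. The ligands accounted for all 3 calls, with 2 higher and 1 lower of 6 and a median log2 fold change of 0.79, which was 0.39 without mouse 12. Among the 3 receptors and Lrig3 the count was 0 of 4 with edgeR and 0 of 4 with DESeq2, 0 of 4 were at an unadjusted p under 0.05 (29.5% of all genes were), and the median was -0.06.

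**Figure D1:**
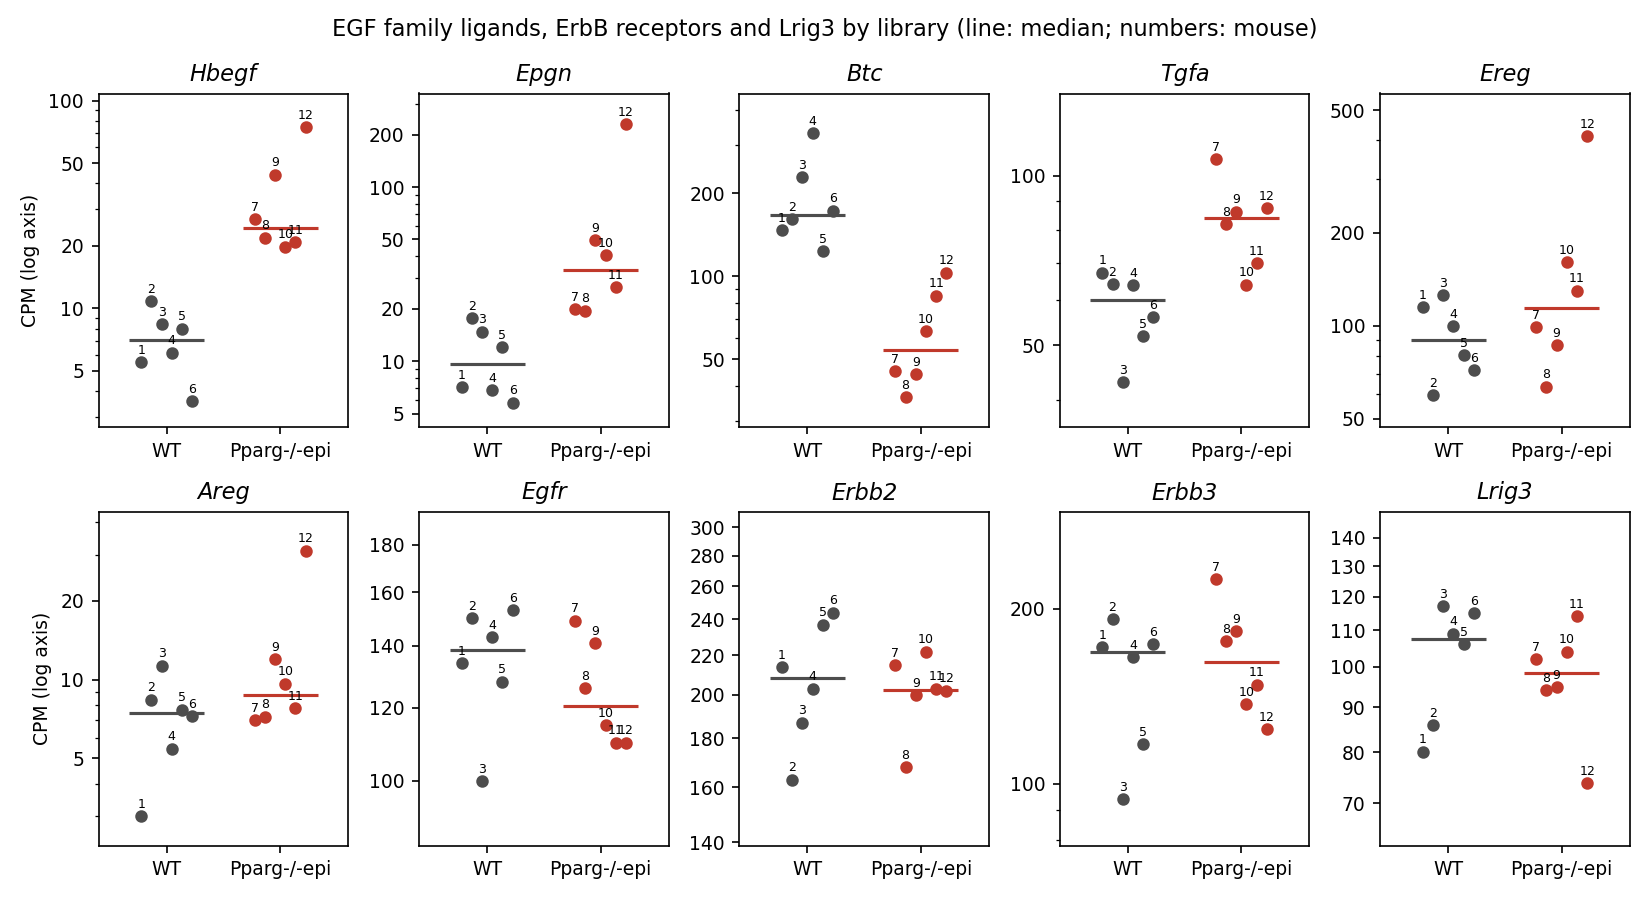
CPM of the 10 genes in each library, on log axes that differ between panels. Each point is 1 mouse, labelled by its number, WT in grey and Pparg-/-epi in red, and the line is the group median. Hbegf and Epgn show no overlap with higher values in Pparg-/-epi mice, Btc shows none with lower values, and mouse 12 is the highest of all for Hbegf, Epgn, Ereg and Areg.

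The targeted gene itself did not separate the groups in this table. Pparg was at 0.533 to 14.3 CPM in WT libraries (median 2.39) and at 1.33 to 6.49 in Pparg-/-epi libraries (median 4.05), with a log2 fold change of -0.10 (SE 0.71, adjusted p = 0.949). That value depended on WT mouse 2, the library at 14.3 CPM: leaving it out turned the sign, to 0.86 (SE 0.58, adjusted p = 0.308), and so did leaving out mouse 10 (0.08) or 12 (0.03). Counts were summed over all exons, and a deleted floxed allele can still give a shortened transcript, so this row does not check the genotype labels. Krt5 and Krt10, the most abundant of the basal and suprabasal keratinocyte markers, were at 5307 ± 1452 and 18423 ± 5737 CPM in WT and at 5867 ± 828 and 18226 ± 4402 CPM in Pparg-/-epi libraries (SD, n = 6 each), so both keratinocyte compartments were abundant in each group. Other markers of them differed: Krt14 (log2 fold change 0.98) and Ivl (1.00) were higher in Pparg-/-epi mice, and DESeq2 also called Krt1 (1.02 with edgeR, adjusted p = 0.101). Mice 2 and 12 stood apart. WT mouse 2 had the highest summed sebocyte, hair shaft, endothelial, macrophage, Langerhans cell, mast cell and adipocyte marker levels of the WT group. It also had the lowest summed basal (7576 CPM) and suprabasal (10971 CPM) keratinocyte marker levels of all 12 libraries. Pparg-/-epi mouse 12 had the highest level of 4 ligands among all 12 libraries. Values are therefore also given without these mice where they matter.

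Hbegf encodes heparin-binding EGF-like growth factor, a ligand of Egfr and Erbb4 that keratinocytes release at wound margins. Its level was 3.59 CPM in the lowest WT library, 7.05 at the WT median and 10.8 in the highest, against 19.8, 24.4 and 74.3 in Pparg-/-epi libraries. All 6 Pparg-/-epi libraries were above all 6 WT libraries, a separation that 7.90% of all genes showed in one direction or the other. Mouse 12 was highest, followed by mouse 9 at 43.9, while the other 4 lay close together. The difference was 4.90-fold (log2 2.29, SE 0.37, adjusted p = 0.00175), and leaving out mouse 12 gave a log2 value of 1.92 (adjusted p = 0.00211).

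Epgn encodes epigen, a low-affinity Egfr ligand found in sebaceous glands and in keratinocytes. It was at 5.79, 9.59 and 17.7 CPM (lowest, median, highest) in WT libraries and at 19.5, 33.6 and 229 in Pparg-/-epi libraries. The groups again did not overlap, but mice 7 and 8, at 19.9 and 19.5, were only just above WT mouse 2, and mouse 12 was 4.63 times the next highest library. The difference was 5.98-fold (log2 2.58, SE 0.63, adjusted p = 0.0158). Without mouse 12 it fell to a log2 fold change of 1.54 (SE 0.35, adjusted p = 0.0142). In the females alone (3 WT and 4 Pparg-/-epi) it was 1.51 and no longer passed the test (adjusted p = 0.121; 4.77e-04 to 0.121 over all alternatives).

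Btc encodes betacellulin, which activates Egfr and Erbb4 and is made in the hair follicle and epidermis. Its level was 123, 167 and 329 CPM (lowest, median, highest) in WT libraries and 36.5, 54.2 and 103 in Pparg-/-epi libraries. The highest Pparg-/-epi library, mouse 12 once more, was below the lowest WT library, mouse 5. Btc was 3.09-fold lower in Pparg-/-epi mice (log2 -1.63, SE 0.30, adjusted p = 0.00344). Mouse 12 thus had more of all 3 altered members than any other Pparg-/-epi mouse, including the ligand that was lower in its group.

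Tgfa encodes transforming growth factor alpha, the classical keratinocyte ligand of Egfr. It was at 43, 60.0 and 67.2 CPM (lowest, median, highest) in WT and 64.0, 84.2 and 107 in Pparg-/-epi libraries. The groups overlapped through mouse 10, the lowest of its group, which lay within the WT range. The log2 fold change of 0.52 (SE 0.14) had an adjusted p of 0.0231 but was under the fold threshold, so the gene was not counted as altered. That adjusted p (edgeR quasi-likelihood test) ran from 0.0148 to 0.0645 when single libraries were left out. It was 0.0525 with breeding block in the model and 0.102 in the females alone.

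Ereg and Areg encode epiregulin and amphiregulin, ligands that keratinocytes use in autocrine growth. Ereg was at 59.5, 90.2 and 126 CPM in WT and 63.6, 115 and 411 in Pparg-/-epi libraries, with a log2 difference of 0.78 (SE 0.40, adjusted p = 0.212). Areg was lower, at 3.00, 7.45 and 11.3 CPM in WT and 7.02, 8.71 and 31.1 in Pparg-/-epi libraries, with a log2 difference of 0.80 (SE 0.41, adjusted p = 0.215). Both differences rested largely on mouse 12: without it they were 0.23 (adjusted p = 0.589) for Ereg and 0.29 (adjusted p = 0.562) for Areg.

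To compare ligands with each other, levels were divided by the exon length listed with the counts (CPM per kb). Btc was first of the 6 ligands in all 6 WT libraries and in 0 of the 6 Pparg-/-epi libraries. In the latter Tgfa (mice 7 and 8), Ereg (mice 10 and 11) or Epgn (mice 9 and 12) was first instead. These places, and the shares and sums below, rest on the listed lengths. The GENCODE annotation gives longer ones for Btc, Hbegf and Tgfa (6490 bases for Tgfa in place of 4229). With those, Btc would still be first in WT libraries, but Ereg would be first in mice 7 and 8. Btc made up 46.8% to 69.4% of the summed level of the 6 ligands in WT libraries (mean 55.5% ± 8.18, SD, n = 6) and 10.3% to 27.2% in Pparg-/-epi libraries (17.3% ± 5.76). The share of Epgn was 5.56% ± 2.80 in WT and 21.1% ± 9.79 in Pparg-/-epi libraries, and that of Hbegf was 2.61% ± 1.12 and 10.8% ± 3.38. The shares of Ereg (19.1% ± 5.02 and 26.0% ± 5.63), Tgfa (12.0% ± 3.16 and 17.5% ± 8.02) and Areg (5.21% ± 2.06 and 7.25% ± 1.08) overlapped between groups. The summed level of the 6 ligands overlapped too, at a median of 106 CPM per kb in WT (91.2 to 165) and 111 in Pparg-/-epi libraries (74.2 to 347, mouse 12 being the highest and the next at 116). The mixture of ligand transcripts therefore differed between the groups while 11 of the 12 libraries had summed levels of 165 CPM per kb or less. Shares of 1 sum are not independent of each other, and no test was run on them.

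**Figure D2:**
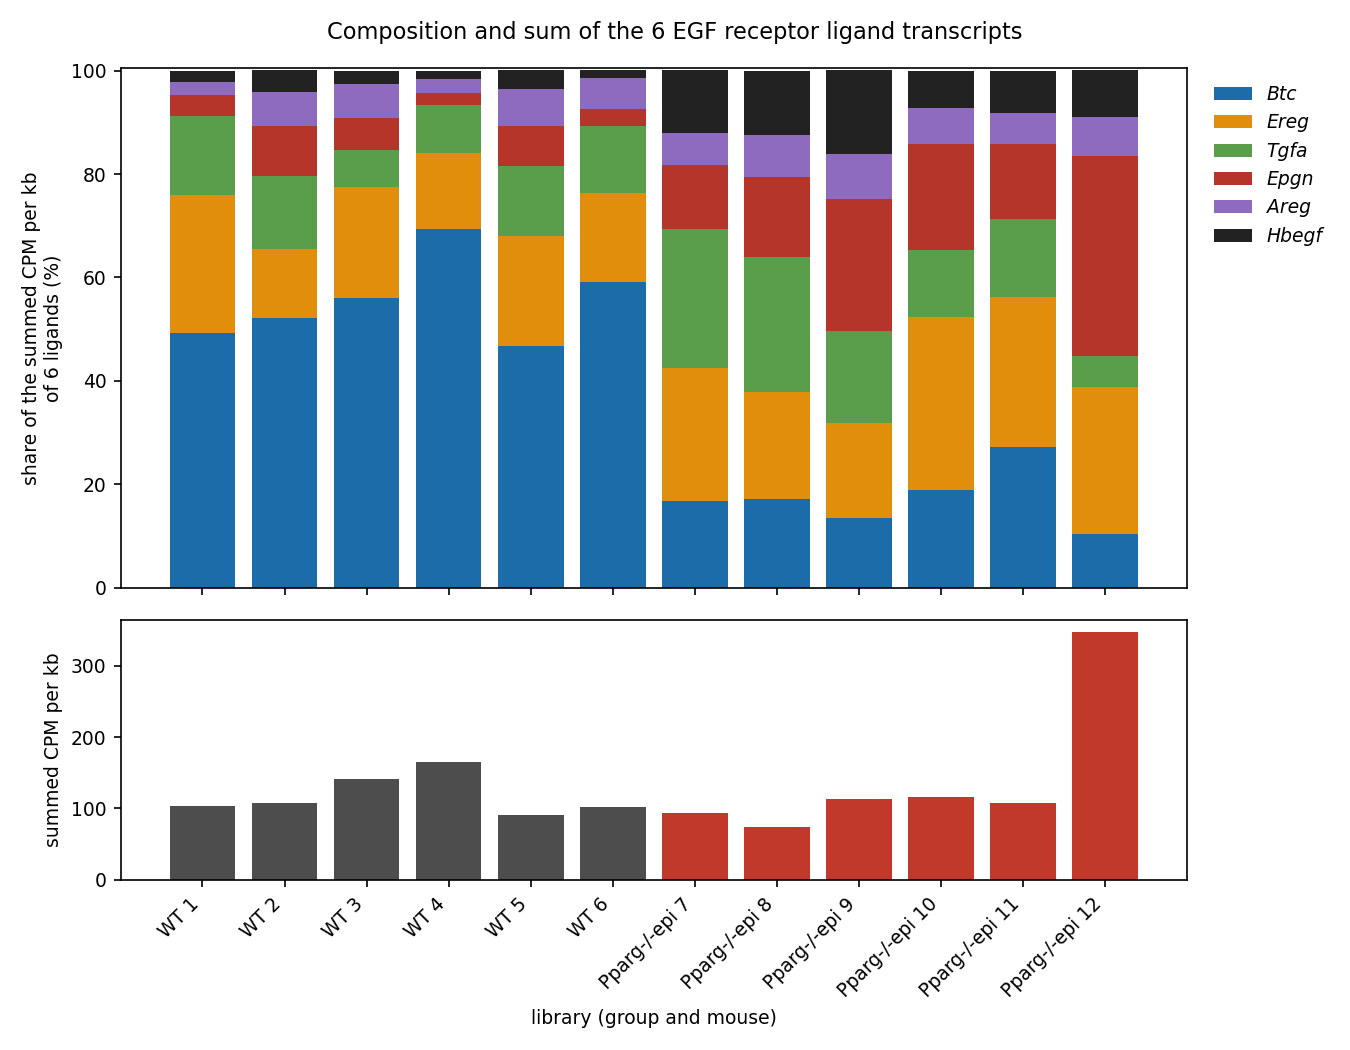
Upper panel, share of each ligand in the summed CPM per kb of the 6 ligands, in percent, for each library. Lower panel, that sum, WT in grey and Pparg-/-epi in red. The Btc share lies between 46.8% and 69.4% in WT and between 10.3% and 27.2% in Pparg-/-epi mice, and the sum is at most 165 CPM per kb except in mouse 12 (347).

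The receptors and Lrig3 showed no altered gene. Egfr, which binds all 6 ligands, was at 100 to 153 CPM in WT and 110 to 149 in Pparg-/-epi libraries (log2 fold change -0.10, SE 0.12, adjusted p = 0.610). Erbb2 was at 163 to 244 and 168 to 222 CPM (-0.05, SE 0.11, adjusted p = 0.816). Erbb3, which has little kinase activity of its own and signals through its partners, was at 93.9 to 192 and 124 to 225 CPM (0.12, SE 0.19, adjusted p = 0.729). Lrig3 was at 80.1 to 117 and 73.8 to 114 CPM (-0.07, SE 0.12, adjusted p = 0.746). All 4 overlapped between groups. Approximate 95% intervals on the log2 scale, from the SE and a normal distribution, were -0.33 to 0.12 for Egfr and -0.26 to 0.16 for Erbb2. For Erbb3 the interval was -0.25 to 0.49 and for Lrig3 -0.31 to 0.17. Such intervals are narrower than the test implies: that of Ereg, 0.01 to 1.56, excludes 0 at an unadjusted p of 0.0702 (edgeR quasi-likelihood test).

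In WT libraries the mean levels per length fell in the order Btc (67.4 ± 26.2 CPM per kb, SD, n = 6), Erbb2 (41.7 ± 6.09), Erbb3 (37.9 ± 9.49), Lrig3 (25.2 ± 3.84), Ereg (22.3 ± 6.23), Egfr (20.9 ± 3.01), Tgfa (13.7 ± 2.17), Epgn (6.30 ± 2.88), Areg (5.98 ± 2.33) and Hbegf (2.97 ± 1.06). Erbb2 and Erbb3, Ereg and Egfr, and Epgn and Areg each changed places in 3 of 6 libraries and were not separated by their spread, and Lrig3 was above Ereg in 4 of 6. In Pparg-/-epi libraries Erbb3 (41.2 ± 9.22) and Erbb2 (40.3 ± 3.72) came first, changing places in 3 of 6 libraries. They were followed by Ereg (38.3 ± 31.0), Epgn (37.6 ± 47.9), Lrig3 (24.0 ± 3.36), Btc (21.8 ± 9.10), Tgfa (19.6 ± 3.54), Egfr (19.5 ± 2.60), Hbegf (14.6 ± 9.02) and Areg (10.4 ± 7.77). The means of Ereg and Epgn there are set largely by mouse 12. From Ereg to Egfr, neighbouring places were not separated. Of 6 Pparg-/-epi libraries, Ereg was above Epgn in 4 and above Lrig3 in 3, and Epgn was above Lrig3 in 2. Lrig3 was above Btc in 4, Btc above Tgfa in 3 and Tgfa above Egfr in 2. Some places further apart were separated, since Ereg was above Btc in all 6 libraries and Lrig3 above Egfr in all 6. Hbegf was below Areg in all 6 WT libraries and above it in all 6 Pparg-/-epi libraries. This order rests on the lengths listed with the counts, 2375 bases for Hbegf and 1199 for Areg. The GENCODE annotation gives 4834 and 1215, which would put Hbegf below Areg in every library of both groups. The change of order between groups therefore holds only with the listed lengths. For Btc the lengths are 2876 and 4520, so its places depend on them too. No full order was recomputed with GENCODE lengths.

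Of the ligand genes, 4 lie together on chromosome 5 (mm10), within 375 kb from the start of Epgn to the far end of Btc. Epgn (chr5:91027517-91035212), Ereg (chr5:91074617-91093649) and Areg (chr5:91139615-91148432) are on the forward strand, 39.4 and 46 kb apart. Btc (chr5:91357261-91402994) is 209 kb further on, on the reverse strand. The pair of altered genes in this cluster moved in opposite directions, Epgn up and Btc down, and the 2 genes between them were not altered. The flanking genes in the table were Mthfd2l, 6.15 kb before Epgn (log2 fold change -0.59, SE 0.18, adjusted p = 0.0486, under the fold threshold), and Parm1, 115 kb beyond Btc (0.73, SE 0.59, adjusted p = 0.453).

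**Figure D3:**
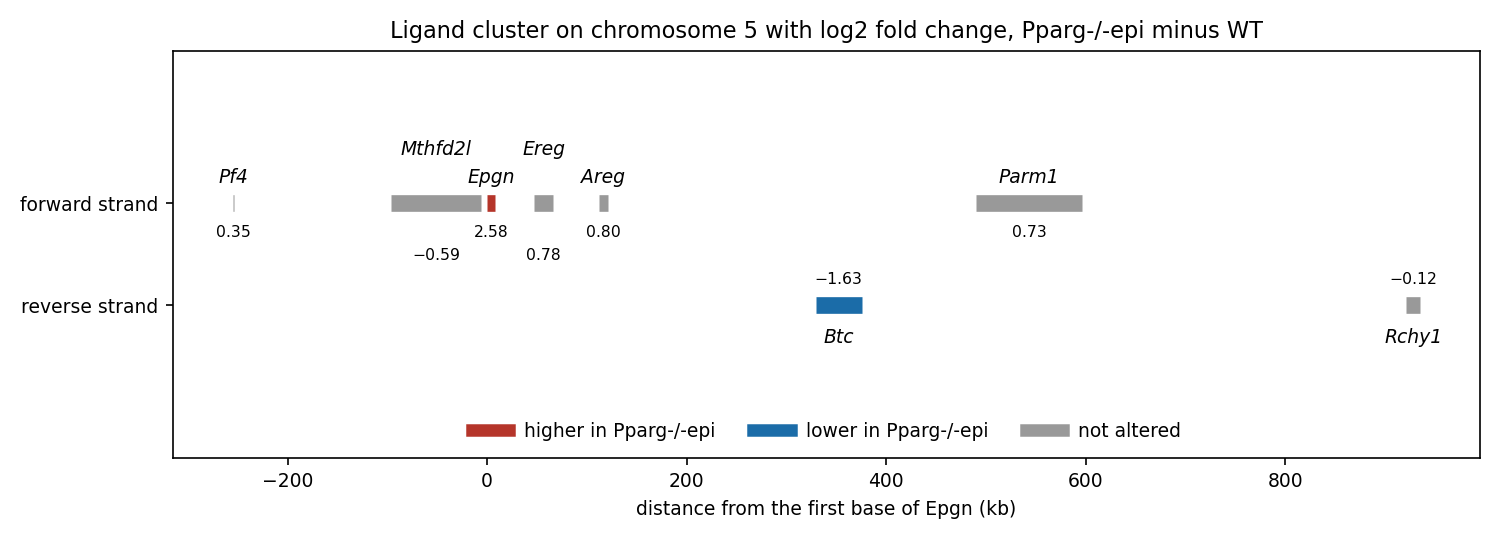
Map of the ligand cluster on chromosome 5 by distance from the first base of Epgn in kb, genes on the forward strand above and on the reverse strand below. The number at each gene is its log2 fold change, Pparg-/-epi minus WT. Epgn (2.58) is higher and Btc (-1.63) lower, and the genes between and beside them are not altered.

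The promoters of Epgn, Areg and Btc are shown because neighbours in it moved apart. They are the 250 bases before the RefSeq transcription start (GRCm38.p6, the mm10 assembly), read 5′ to 3′ on the gene's strand. A RefSeq promoter was matched for 7 of the 10 genes, 1 each, and those of Hbegf, Ereg and Erbb3 were not used here. Capitals mark matches on either strand to a TATA box (TATAAA), an AP-1 site (TGANTCA), a cyclic AMP response element (TGACGTCA) or a direct repeat bound by PPAR and RXR (AGGTCANAGGTCA), none of which overlapped another. The positions are chr5:91027267-91027516 (+) for Epgn, chr5:91139349-91139598 (+) for Areg and chr5:91402995-91403244 (-) for Btc.
Epgn: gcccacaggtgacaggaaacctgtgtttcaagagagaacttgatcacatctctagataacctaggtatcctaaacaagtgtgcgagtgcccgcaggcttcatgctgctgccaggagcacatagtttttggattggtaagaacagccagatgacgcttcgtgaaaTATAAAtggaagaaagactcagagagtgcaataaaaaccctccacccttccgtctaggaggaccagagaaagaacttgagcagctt
Areg: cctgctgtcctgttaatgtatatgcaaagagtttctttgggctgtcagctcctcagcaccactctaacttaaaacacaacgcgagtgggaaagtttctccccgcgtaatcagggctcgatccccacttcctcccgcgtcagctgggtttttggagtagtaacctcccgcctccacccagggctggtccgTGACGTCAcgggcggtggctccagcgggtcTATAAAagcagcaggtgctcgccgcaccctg
Btc: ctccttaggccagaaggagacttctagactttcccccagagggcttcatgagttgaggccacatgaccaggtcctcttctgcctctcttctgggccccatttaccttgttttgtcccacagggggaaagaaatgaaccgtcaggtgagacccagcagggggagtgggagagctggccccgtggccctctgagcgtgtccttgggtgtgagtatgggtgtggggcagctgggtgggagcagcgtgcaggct
Epgn held a TATAAA 86 bases before its start, and Areg held a TATAAA at 31 bases and a TGACGTCA at 61 bases. The window of Btc held none of the 4 motifs, and neither did those of Tgfa, Egfr, Erbb2 and Lrig3. Of 32851 RefSeq promoter windows of the same length, 12.4% held TATAAA, 6.75% TGANTCA, 1.55% TGACGTCA and 0.0335% AGGTCANAGGTCA. These are matches of letters, and binding at them was not measured.

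Other genes of the pathway were counted from lists set out by role. Of 80 genes named in 6 lists, 78 were in the table (Nrg3 and Erbb4 were not listed there), of which 10 rose and 1 fell in Pparg-/-epi mice. That is 14.1% of them, beside 10.3% of all genes, and their median log2 fold change was 0.16. With WT mouse 2 left out the count was 18, 14 higher and 4 lower (23.1%, beside 15.5% of all genes in that fit), and in the females alone it was 4, with 2 higher and 2 lower (5.13%, beside 4.48% of all genes in that fit) and 3 of them among the 11.

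Among the 4 other ErbB ligands listed, Nrg1 was higher and Nrg4 lower. Nrg1 encodes neuregulin 1, a ligand of Erbb3 and Erbb4, and was scarce in both groups. It was at 0.538, 1.03 and 1.58 CPM (lowest, median, highest) in WT and 2.26, 3.63 and 4.36 in Pparg-/-epi libraries, with no overlap (log2 fold change 1.76, SE 0.32, adjusted p = 0.00322). Nrg4, a ligand of Erbb4 and in WT the most abundant of this list per length, was at 5.35, 7.01 and 8.87 CPM in WT and 0.780, 1.36 and 2.58 in Pparg-/-epi libraries. It too separated all 12 mice (log2 fold change -2.16, SE 0.32, adjusted p = 9.93e-04). Egf (-0.72, SE 0.39, adjusted p = 0.244) and Nrg2 (-0.60, SE 0.21, adjusted p = 0.0741) did not pass the test, but DESeq2 called Nrg2 as lower (-0.60, adjusted p = 0.0385). Taken with the members, 5 of 10 listed ErbB ligands were altered with edgeR (10.3% of all genes), 3 higher and 2 lower, and 6 with DESeq2 (12.3% of all genes), 3 higher and 3 lower. Lrig1, the most abundant of the 2 other receptor and Lrig genes listed, restrains Egfr in epidermal stem cells. It was at 111 ± 57.1 CPM in WT and 206 ± 85.4 in Pparg-/-epi libraries (SD, n = 6 each, log2 fold change 0.89, SE 0.34, adjusted p = 0.0938). WT mouse 2 was at 223 CPM and the next highest WT library, mouse 1, at 109, while Pparg-/-epi libraries ran from 96.7 to 298. The median log2 fold change of these 2 genes was 0.41, and 0.56 without WT mouse 2. In this list 0 of 2 genes were altered with edgeR and 1 (Lrig1) with DESeq2. An unadjusted p under 0.05 was reached by 1 of 2, beside 29.5% of all genes.

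No gene for ligand shedding was altered. The count was 0 of 11 with edgeR and with DESeq2, 4 of 11 were at an unadjusted p under 0.05 (beside 29.5% of all genes), and the median log2 fold change was -0.05. Adam17, the main sheddase of Egfr ligands, was at 141 ± 15.2 CPM in WT and 120 ± 9.04 in Pparg-/-epi libraries (log2 fold change -0.23, SE 0.09, adjusted p = 0.0903). Rhbdf1, an iRhom that carries Adam17 to the cell surface and the most abundant of the list per length, was at 129 ± 28.3 and 92.7 ± 19.7 CPM (-0.48, SE 0.17, adjusted p = 0.0778).

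Of 19 genes for feedback and receptor degradation, 2 were higher and 0 lower (median log2 fold change 0.16), beside 10.3% altered of all genes. DESeq2 called the same 2, and 6 of 19 were at an unadjusted p under 0.05 (beside 29.5% of all genes). Socs5, which promotes Egfr degradation, was at 14.7 to 44.4 CPM in WT and 32.9 to 69.0 in Pparg-/-epi libraries (log2 fold change 1.11, SE 0.27, adjusted p = 0.0146). WT mouse 2, at 44.4, was the one WT library within the Pparg-/-epi range. Spred3, an inhibitor of RAS signalling, was at 2.56 to 5.82 and 6.24 to 8.67 CPM (0.76, SE 0.20, adjusted p = 0.0250), and its adjusted p was between 0.0157 and 0.0671 when single libraries were left out. Without mouse 12, for one, it was 0.0506, and the call was lost in 5 of the 12 such fits. In the females alone neither Socs5 (1.05, adjusted p = 0.103) nor Spred3 (0.61, adjusted p = 0.120) passed the test. Ptpn1 (log2 fold change 0.42, adjusted p = 0.0169) and Spry1 (-0.51, adjusted p = 0.0405) passed on p alone. Errfi1, the most abundant per length and a direct inhibitor of the Egfr kinase, was at 113 ± 16.3 CPM in WT and 143 ± 45.6 in Pparg-/-epi libraries (0.35, SE 0.18, adjusted p = 0.215).

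The adaptors and kinases between receptor and ERK were not altered by the rule. The count was 0 of 29 with edgeR and 1 (Ksr1) with DESeq2, 10 of 29 were at an unadjusted p under 0.05 (beside 29.5% of all genes), and the median log2 fold change was 0.07. Gab1, a docking protein of Egfr, was nonetheless lower in every Pparg-/-epi library (87.0 to 119 CPM) than in any WT library (129 to 186), at a log2 fold change of -0.57 (SE 0.10, adjusted p = 0.00335), just under the fold threshold. Map2k1, which encodes the kinase MEK1, was at 29.0 to 36.9 CPM in WT and 39.1 to 54.9 in Pparg-/-epi libraries (0.50, SE 0.10, adjusted p = 0.00521). Shc1 (0.34, adjusted p = 0.0267) and Araf (-0.42, adjusted p = 0.0195) passed on p alone, and Mapk3, which encodes ERK1 and was the most abundant per length, was at 245 ± 43.1 and 207 ± 15.4 CPM (-0.24, SE 0.11, adjusted p = 0.183).

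Of 15 listed genes known to be induced by ERK signalling, 7 were higher (46.7%, beside 5.19% of all genes) and 0 lower, with a median log2 fold change of 0.67 (1.12 without WT mouse 2). DESeq2 called the same 7, and 10 of 15 were at an unadjusted p under 0.05, beside 29.5% of all genes. No test compared this list with other genes. ERK itself was not measured, and other pathways induce several of these genes. Etv4, a transcription factor of the ETS family, was at 2.45, 5.09 and 5.85 CPM (lowest, median, highest) in WT and 17.5, 19.6 and 26.8 in Pparg-/-epi libraries. Its lowest Pparg-/-epi library was well above the highest WT library (log2 fold change 2.13, SE 0.20, adjusted p = 7.82e-05). Dusp6, a phosphatase that inactivates ERK, was at 12.0, 16.7 and 23.8 CPM in WT and 31.8, 44.3 and 104 in Pparg-/-epi libraries (1.73, SE 0.30, adjusted p = 0.00254). Egr1, an immediate early transcription factor and the most abundant of the list per length, was at 35.1, 78.9 and 119 CPM in WT and 138, 209 and 282 in Pparg-/-epi libraries (1.36, SE 0.29, adjusted p = 0.00760). Neither gene overlapped between the groups.

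Ier3, a stress-induced survival gene (2.83-fold, adjusted p = 0.00223), and Phlda1, an epithelial gene of the follicle stem cell region (log2 fold change 1.41, SE 0.26, adjusted p = 0.00377), also separated all mice. Epha4, an ephrin receptor, did not (0.67, SE 0.14, adjusted p = 0.00703): WT mouse 2 was at 106 CPM, within the Pparg-/-epi range of 99.6 to 141, and its log2 fold change fell under the threshold with RIN (0.56) or breeding block (0.57) in the model. Fosl1, an AP-1 subunit of migrating keratinocytes, was at 2.97 to 7.22 CPM in WT and 6.79 to 79.4 in Pparg-/-epi libraries (2.32, SE 0.59, adjusted p = 0.0181). Mouse 12 was 5.06 times the next highest library there, and leaving that mouse out gave a log2 value of 1.31 (adjusted p = 0.0108). Fosl1 is also an uncertain count, because 57.2% of its exon bases in GENCODE overlap Ccdc85b on the opposite strand and whether strand was used in counting is not given in the sources used here. Phlda1 shares 33.0% of its exon bases with the antisense Gm28592, Nrg4 shares 8.97% with genes on the opposite strand and Nrg1 4.66%, and the altered members Hbegf, Epgn and Btc share none with any gene. In the females alone Etv4 remained past the threshold (adjusted p = 0.0109), while Dusp6 (0.0509), Fosl1 (0.0537), Phlda1 (0.0578), Ier3 (0.0593), Epha4 (0.0760) and Egr1 (0.132) missed it on p. Their log2 values there were 1.57, 1.52, 1.46, 1.29, 0.63 and 1.24, from 7 libraries in place of 12.

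Spry2 (-0.36, SE 0.22, adjusted p = 0.300) and Ccnd1 (0.01, SE 0.16, adjusted p = 0.975), other known ERK outputs, did not pass the test, and Epha2 passed on p alone (0.52, SE 0.12, adjusted p = 0.0109). Mouse 12 was the highest Pparg-/-epi library for 8 of the 15 genes, mouse 9 for 3, and mice 7 and 8 for 2 each.

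**Figure D4:**
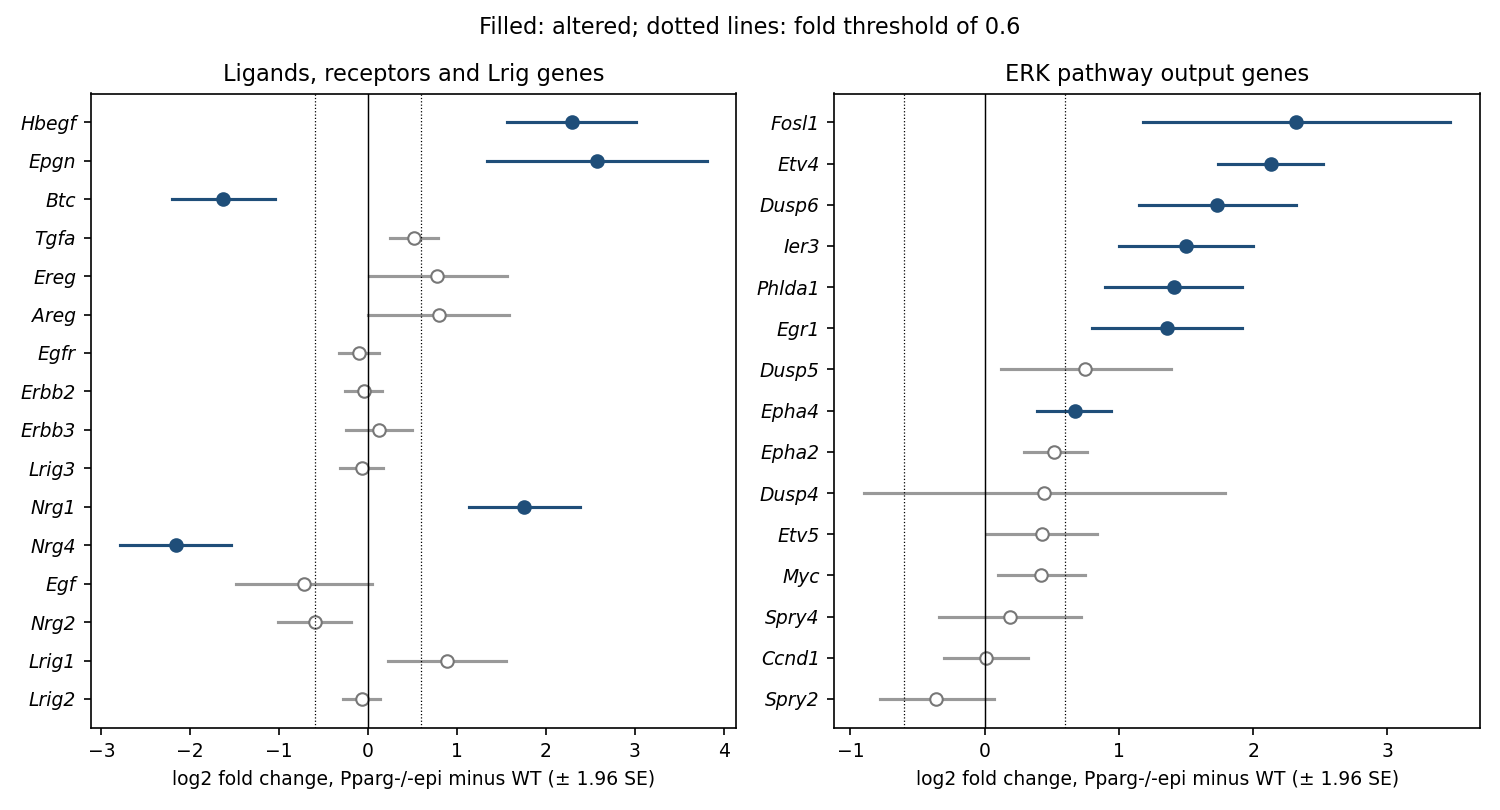
Log2 fold change, Pparg-/-epi minus WT, for the members and related ligands and Lrig genes (left) and for 15 ERK pathway output genes (right), from 6 libraries a group. Bars are approximate 95% intervals from the SE and a normal distribution. They are narrower than the test implies, so a bar that clears 0 is not a call. Filled points are altered genes and dotted lines mark the fold threshold of 0.6. On the left the altered Hbegf, Epgn, Nrg1, Btc and Nrg4 lie outside it, as do the points of Areg, Ereg, Egf and Lrig1, which did not pass the test, and Nrg2 lies at the line, while Egfr, Erbb2, Erbb3 and Lrig3 lie near 0, and on the right 7 genes are higher.

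Variation between mice of 1 group was described by each gene's deviation from its group mean on the log2 CPM scale over the 12 libraries. Epgn varied with Hbegf (Pearson r = 0.87, Spearman rho = 0.77) and with Areg (0.87 and 0.83), and without mouse 12 the Pearson r was 0.76 and 0.70. Hbegf with Areg was at 0.73 and 0.65, and its Pearson r fell to 0.47 without mouse 12. Egfr varied with Erbb3 (0.93 and 0.90, and 0.92 without mouse 12). Hbegf also varied with Dusp6 (r = 0.94, and 0.88 without mouse 12) and Nr4a3 (0.93 and 0.86), both of which were higher in Pparg-/-epi mice. The genes most like Epgn in this measure were Tnfrsf12a (0.94), Osgin2 (0.92) and Atf3 (0.92), at 0.82, 0.72 and 0.80 without mouse 12. Those most like Btc were Plscr4 (0.94), Rbm5 (0.93) and Tbc1d23 (0.93), at 0.93, 0.91 and 0.92 without it. For Epgn and Btc these were the 3 highest of all genes listed, and no test was run on any of these pairs.

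Cell type markers moved between the groups as well. Not every marker chosen was among the genes listed. Retnlg, Ly6g and Mpo (neutrophil), Mcpt8 (mast cell and basophil) and Mc5r (sebocyte) were not in the table. Neither were Trdc (T cell) and Tyr (melanocyte). In bulk libraries a lower level from fewer cells of a type and one from less RNA per cell cannot be told apart. Of 5 sebocyte markers listed 4 were lower (5 with the likelihood ratio test), and their summed level was 12.3 to 725 CPM in WT (median 87.8) and 2.41 to 10.1 in Pparg-/-epi libraries (median 3.44). Scd3 was the most abundant of them, and in Pparg-/-epi libraries it was at 0 counts in 1 and Awat1 in 2 of 6. Scd3, Awat1 and Elovl3 could be listed (over 0.5 CPM in 6 libraries) only through the WT group, so a call as lower was favoured in advance. Of 6 mast cell and basophil markers listed 6 were higher, with a summed level of 19.2 to 90.2 CPM in WT (median 57.7) and 131 to 240 in Pparg-/-epi libraries (median 162). Mcpt4 was the most abundant, and Fcer1a was at 0 counts in 5 of 6 WT libraries. Fcer1a could be listed (over 0.5 CPM in 6 libraries) only through the Pparg-/-epi group, so its call as higher was favoured in advance. Of 3 neutrophil markers listed 2 were higher (all 3 with DESeq2 and with the likelihood ratio test), summing to 1.64 to 5.56 and 21.0 to 31.1 CPM (medians 4.90 and 25.9), S100a8 being the most abundant and Cxcr2 at 0 in 1 WT library. Cxcr2 too could be listed only with the help of the Pparg-/-epi group. The part of these cell types in the ligand and ERK output levels was not tested.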

How the data were processed

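Messenger RNA of 12 scraped epidermis samples was sequenced in paired ends of 75 bases. The authors aligned reads to mm10 with STAR 2.5.2b, removed multi-mapped reads, counted per gene with featureCounts of Subread 1.5.1 and deposited raw counts per gene. The table had 17333 rows, of which 2800 named no gene and were dropped, and every listed gene was over 0.5 CPM in 6 or more libraries. Columns of mice 11 and 12 were matched through the sample number in the study's run sheet. Counts were scaled by TMM factors and tested with edgeR 4.0.16 (quasi-likelihood, no covariate, Benjamini-Hochberg over 14533 genes). SE is the fold change over the square root of the F statistic. DESeq2 1.42.0 was an alternative. Named genes were every member, the altered and most abundant genes of 6 pathway lists, 3 genes most like each altered member (1 for Hbegf is not reported here), cluster neighbours, the most abundant gene of each marker list, and Pparg, with abundance ranked by mean CPM per exon length over both groups. Further genes were named after their values were seen. The members and lists were chosen with earlier results of these data known.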

Additional observations from a re-analysis of the deposited data

Results flagged for a closer look

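Within groups of 6 libraries, a library was taken to stand far from the others when its gap to the nearest was too large a part of the range of its group (Dixon's test at the 95% level). Of 42 groups checked (21 genes in WT and in Pparg-/-epi mice) 6 met this, where chance alone gives about 1 in 20 for independent groups, which these were not, since the genes come from the same libraries and several vary together. Pparg-/-epi mouse 12 was the library in 5 of them. It was at 31.1 CPM for Areg (next highest 12.0), 411 for Ereg (161), 229 for Epgn (49.4), 79.4 for Fosl1 (15.7) and 70.9 for Ier3 (42). The sixth was Etv4 in Pparg-/-epi mouse 9, at 26.8 CPM with the next highest library at 20.9.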

How the results depend on the processing

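The call of Hbegf and Epgn as higher, Btc as lower and no other member as altered held in 22 of 23 alternatives. These were other tests (likelihood ratio, DESeq2), scalings (total counts, upper quartile), a filter of 10 counts in every library, and covariates (sex, RIN, age, breeding block). Fits were also run on the females alone, with each of 12 libraries left out, and with mice 2 and 12 left out together, the last chosen after seeing the data. The breeding block was a split of the breeding numbers into 2 blocks, earlier and later, made for this fit and not recorded with the samples. The exception was the females alone, where Epgn missed the threshold (1.51, adjusted p = 0.121). Log2 fold changes ranged from 1.92 to 2.44 for Hbegf, 1.51 to 2.81 for Epgn and -2.07 to -1.41 for Btc. With single libraries left out, altered genes numbered 1116 to 2249 (the latter without mouse 2; main count 1493), altered members 3 to 3 and altered pathway genes 10 to 18 (main count 11). The females alone gave 651 genes and 4 pathway genes, from 7 libraries in place of 12, and leaving out mice 2 and 12 gave 2329 and 18; the cause of the latter was not tested. Signs turned for genes that were never called: Erbb2 with RIN (0.02) and without WT mouse 6 (0.00; -0.12 to 0.00 over the 12 libraries), Erbb3 with RIN (-0.02), breeding block (-0.04) and without mouse 7 (-0.01; -0.01 to 0.19), Lrig3 with RIN (0.00), and Pparg with age (0.35), without mouse 2, 10 or 12 (0.86, 0.08 and 0.03; -0.32 to 0.86), and without mice 2 and 12 together (0.98). No paired analysis was possible because WT mice carry replicate numbers 1 to 6 and Pparg-/-epi mice 7 to 12, and of 6 breeding numbers 1 was shared (222, WT mouse 2 and mouse 10). Breeding number runs in part with genotype: 4 of 6 WT mice carry 226 and no Pparg-/-epi mouse does. With Nrg1 at 3.42 CPM or less on average, its fold change rests on few counts.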

Other observations

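A genotype by sex term was fitted as a further description. It passed an adjusted p of 0.05 for 0 of 14533 genes in edgeR. The 741 genes at an unadjusted p under 0.05 are about as many as that threshold passes with no effect. The 2 genes below are therefore described only. For Epgn the term was 2.07 on the log2 scale, larger in males (unadjusted p = 0.0429, adjusted p = 0.895), with males being mice 10 and 12 in the Pparg-/-epi group. Epgn was at 19.5 to 49.4 CPM in the 4 Pparg-/-epi females and at 40.5 and 229 in the 2 males. For Nrg4 the term was 1.26 (unadjusted p = 0.0162, adjusted p = 0.895), with 0.780 to 1.63 CPM in the Pparg-/-epi females and 2.49 and 2.58 in the males.

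Keratinocyte genes outside the ErbB family differed within their marker lists. Krt14, a keratin of the basal layer, was at 2565 ± 774 CPM in WT and 5064 ± 516 in Pparg-/-epi libraries (SD, n = 6 each; log2 fold change 0.98, adjusted p = 0.00559), the 1 of 5 basal markers that was altered. Ivl, which encodes involucrin of the cornified envelope, was at 319 ± 25.6 and 639 ± 100 CPM (1.00, adjusted p = 2.32e-04), the 1 of 5 suprabasal markers altered with edgeR. DESeq2 called Krt1 as well (edgeR log2 fold change 1.02, adjusted p = 0.101). Of 5 Langerhans cell markers 2 were higher, Mfge8 (0.92, adjusted p = 0.00305) and Epcam (1.04, adjusted p = 3.00e-04), while Cd207 was not altered (0.00, adjusted p = 0.996) and Cd74 was the most abundant (-0.04, adjusted p = 0.915). Emcn was higher among 5 endothelial markers (1.79, adjusted p = 0.0340), led by Pecam1 (1.42, adjusted p = 0.250). Cd3e was lower among 4 T cell markers (-0.75, adjusted p = 0.0325), led by Cd3g (-0.47, adjusted p = 0.238), whereas Cd28 had a positive value (1.29, unadjusted p = 0.0387, adjusted p = 0.144). Mbp, the most abundant of 5 Schwann cell markers, was lower (-0.63, adjusted p = 5.01e-04).

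In 6 other lists no marker was altered with the quasi-likelihood test of edgeR: 0 of 7 for hair shaft and inner root sheath (most abundant per length over both groups Krt71), 0 of 6 for fibroblasts (Col1a1), 0 of 5 for macrophages (C1qa), 0 of 4 for melanocytes (Dct), 0 of 5 for skeletal muscle (Tnnt3) and 0 of 5 for adipocytes (Cfd). DESeq2 called 0 in each of these, the likelihood ratio test called 1 muscle marker (Mylpf, -2.71, adjusted p = 0.0497) and 0 in the others, and an unadjusted p under 0.05 was reached by 3 skeletal muscle markers and by 0 in each of the others. The values of all 7 hair shaft markers (median log2 fold change 1.41) and all 4 melanocyte markers (1.55) were above 0. Those of all 5 skeletal muscle markers (-3.81) and all 5 adipocyte markers (-0.48) were below 0. Marker sums varied widely between mice. For hair shaft they ran from 17.1 to 2074 CPM in WT and 151 to 4371 in Pparg-/-epi libraries. For melanocytes they ran from 3.52 to 38.0 and 10.5 to 166. Muscle markers summed to a median of 38.0 CPM in WT (10.0 to 9059, mouse 5 being the highest) and 29.8 in Pparg-/-epi libraries (8.48 to 354).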
